A study of Homo sapiens with 6 samples.

Results

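The collagen chain genes of BE-(2)-C cells, a line from a human neuroblastoma with amplified MYCN, were followed after knockdown of ELF4, a transcription factor of the ETS family. The members were all rows of the gene table whose whole name is COL, digits, A, digits, which gave 34 of 26906 rows. The 2 groups were cells treated with ELF4 siRNA and cells treated with control siRNA, with polyA RNA collected after 48 hours and 3 libraries per group, so every library came from cells that had received an siRNA. The line is a single tumour-derived line grown as a bulk culture, and in bulk RNA fewer cells of a type and less RNA per cell cannot be told apart.

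Collagens are the main structural proteins of the extracellular matrix. Each molecule is a triple helix of chains built from repeats of glycine and other residues, and a molecule may hold copies of one chain or of several different chains, so the balance between partner chains decides which molecules can form. Chains are hydroxylated and folded in the endoplasmic reticulum, trimmed after secretion and crosslinked by lysyl oxidases. Fibrillar collagens bear load, network-forming collagens build basement membranes and other sheets, FACIT collagens sit on the surface of fibrils, and beaded filament collagens surround cells. Basement membrane and type VI collagens ensheath Schwann cells and vessels in peripheral nerve.

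Among the members, 25 had a normalised read count of at least 10 in at least 3 libraries and were tested, and 12 of them were well counted, here a mean of at least 100 over all 6 libraries. More chains rose than fell with ELF4 siRNA: 13 rose, 4 fell and 8 were not called (limma, Benjamini-Hochberg adjusted p under 0.05 over all 20339 tested rows). Over all tested rows the shares were 20.7% rising and 24.4% falling. The 13 include COL14A1, which passed the filter only through its ELF4 siRNA libraries and is no support for the count. The chains of type III and type XVI collagen rose most, and a chain of the cartilage collagen type IX fell most. The other 9 members had values between 0 and 8.48 in every library and were not tested. A further 10 human collagen chains of the class lists had no row and were not analysed here.

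Promoter sequences are shown for chains that the results below turn on and that the RefSeq promoter table holds: COL16A1 and COL6A3, which rose, COL9A2, which fell, and the head-to-head pair COL4A1 and COL4A2, which were not called. The sequences are from RefSeq on GRCh38.p14, 250 bases before to 50 bases after the annotated start, read 5′ to 3′ on the strand given. Capitals mark GGAA or its reverse complement TTCC, the core of the motif that ETS factors bind. For COL4A1, on the minus strand, and COL4A2, on the plus strand, only the 226 bases that their windows share are shown. Their annotated start sites lay 127 bases apart.
COL16A1, chr1:31703968-31704267, minus strand: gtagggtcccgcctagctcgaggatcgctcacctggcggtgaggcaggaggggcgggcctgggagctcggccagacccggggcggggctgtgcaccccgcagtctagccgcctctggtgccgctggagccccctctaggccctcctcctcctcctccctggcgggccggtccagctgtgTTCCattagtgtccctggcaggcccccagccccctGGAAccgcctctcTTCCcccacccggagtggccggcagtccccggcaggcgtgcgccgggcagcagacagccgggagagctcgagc
COL6A3, chr2:237414115-237414414, minus strand: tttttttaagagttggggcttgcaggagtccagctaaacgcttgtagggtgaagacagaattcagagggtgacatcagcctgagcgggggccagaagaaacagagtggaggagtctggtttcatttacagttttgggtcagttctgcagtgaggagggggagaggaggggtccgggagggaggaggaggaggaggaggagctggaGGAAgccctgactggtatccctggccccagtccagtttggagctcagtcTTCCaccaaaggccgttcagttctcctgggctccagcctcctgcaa
COL9A2, chr1:40317237-40317536, minus strand: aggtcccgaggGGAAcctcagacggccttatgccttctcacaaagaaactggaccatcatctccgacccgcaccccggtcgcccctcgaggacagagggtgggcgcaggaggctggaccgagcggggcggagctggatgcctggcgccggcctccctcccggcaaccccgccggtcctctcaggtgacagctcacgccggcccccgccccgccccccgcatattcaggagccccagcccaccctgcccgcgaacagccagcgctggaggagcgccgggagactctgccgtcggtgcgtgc
COL4A1 and COL4A2, chr13:110307108-110307333, plus strand: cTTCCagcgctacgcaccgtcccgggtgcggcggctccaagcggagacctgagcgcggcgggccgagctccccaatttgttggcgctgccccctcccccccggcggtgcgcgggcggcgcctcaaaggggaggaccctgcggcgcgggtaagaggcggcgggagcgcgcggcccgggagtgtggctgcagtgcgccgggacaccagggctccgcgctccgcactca

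The COL16A1 window held GGAA on either strand 3 times, the COL6A3 window 2 times, the COL9A2 window 1 time and the segment shared by COL4A1 and COL4A2 1 time. Of the 34 members, 24 were matched in the promoter table, with 33 windows between them, as 6 members had several. GGAA on either strand was present in 32 of the 33 windows (97%), against 95.5% of all 35116 promoter windows of the table, and the window without it was 1 of the windows of COL18A1. The longer form CCGGAAG, searched on both strands and containing GGAA, was in 0 of the 33, against 10.3% of all windows. These are letter matches in these windows, and no binding was measured.

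ELF4 itself had normalised counts of 5.51, 5.61 and 3.10 in the ELF4 siRNA libraries, against 42.4, 38.8 and 46.8 in the control siRNA libraries. Its level in ELF4 siRNA cells was 11.1% of that in control siRNA cells (limma log2 fold change −2.96 ± 0.25 SE, adjusted p 5.38e-07, n = 3 each). The libraries held 23770924 to 25408746 reads in the ELF4 siRNA group and 23148635 to 38097986 in the control siRNA group. All 10 neuroblastoma markers were counted well enough to be tested. Of them 3 rose (HAND2, CHGA and CHGB), 3 fell (DBH, ISL1 and MYCN) and 4 were not called. Their summed level was 243100 to 263185 in ELF4 siRNA libraries and 209300 to 223655 in control siRNA libraries. The highest were CHGA, MYCN and CHGB. They averaged 104374, 70994 and 30536 with ELF4 siRNA and 71155, 78443 and 21579 with control siRNA, so the higher sum does not stand for all markers. The labels give only treatment in triplicate, so each p-value reflects how far these libraries differ from one another, and that spread may be technical.

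Of all tested rows, 20.7% rose and 24.4% fell, so 45.1% were called in one direction or the other. Among the 25 tested collagen chains, 52% rose, 16% fell and 68% were called. Every value over these 25 includes COL14A1, which passed the filter only through its ELF4 siRNA libraries. The values over the well counted chains do not include it. Of the tested rows with a mean of at least 100, 24.7% rose and 32.8% fell, while of the 12 well counted collagen chains 7 rose, 2 fell and 3 were not called. The median log2 fold change was 0.30 over the tested chains and 0.30 over the well counted ones, against −0.00 over all tested rows and −0.03 over rows with a mean of at least 100. The values of ELF4 siRNA and control siRNA libraries did not overlap for 16 of the 25 chains (64%), against 53.6% of all tested rows. Most changes were small, as 4 of the 17 called chains changed by at least 1 on the log2 scale and 8 by less than 0.5. The summed normalised count of the 34 members was 7453, 7554 and 8222 in ELF4 siRNA libraries, against 6497, 6257 and 6103 in control siRNA libraries, a ratio of 1.23.

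**Figure D1:**
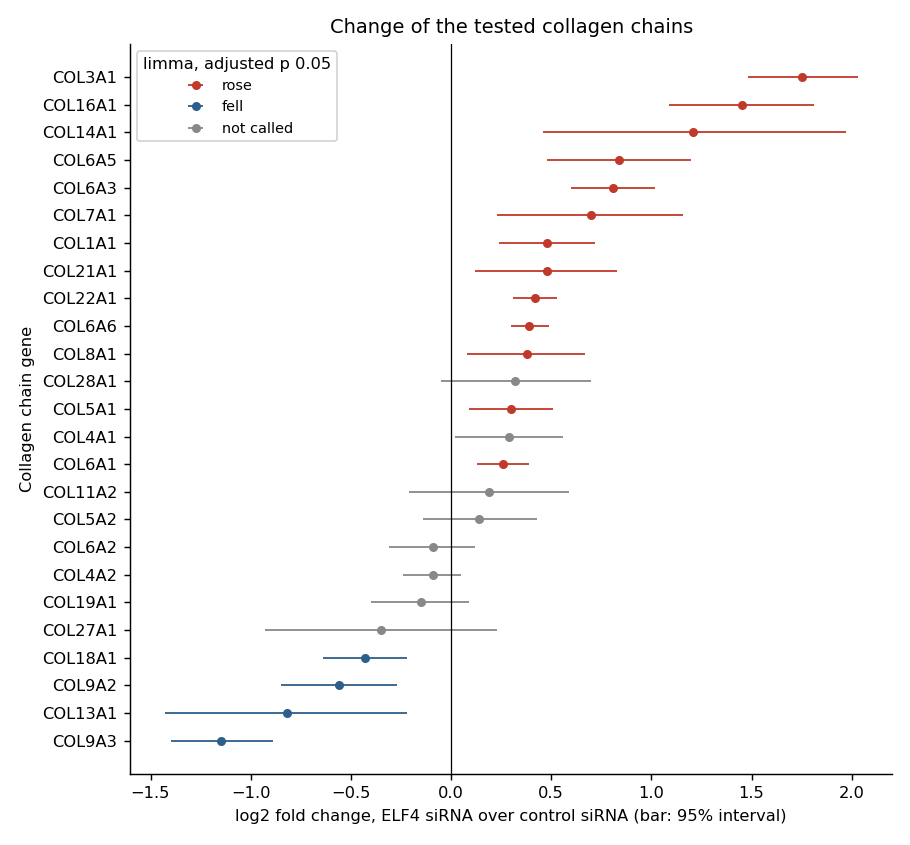
Log2 fold change, ELF4 siRNA over control siRNA, of the 25 tested collagen chains, with the 95% interval from limma as a bar and the colour showing the call at an adjusted p of 0.05. COL3A1 lies at 1.75 and COL9A3 at −1.15, and most of the intervals that clear 0 lie on the right.

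The libraries of the ELF4 siRNA group differed among themselves. ELF4 siRNA replicate 3 was the highest of the ELF4 siRNA libraries for 13 of the 25 tested chains and for 8 of the 12 well counted ones, against 33.5% of all tested rows. Without that library 9 chains rose and 4 fell, and the calls of COL5A1, COL8A1, COL14A1 and COL21A1 were lost (adjusted p 0.0980, 0.131, 0.0667 and 0.0717 in limma).

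**Figure D2:**
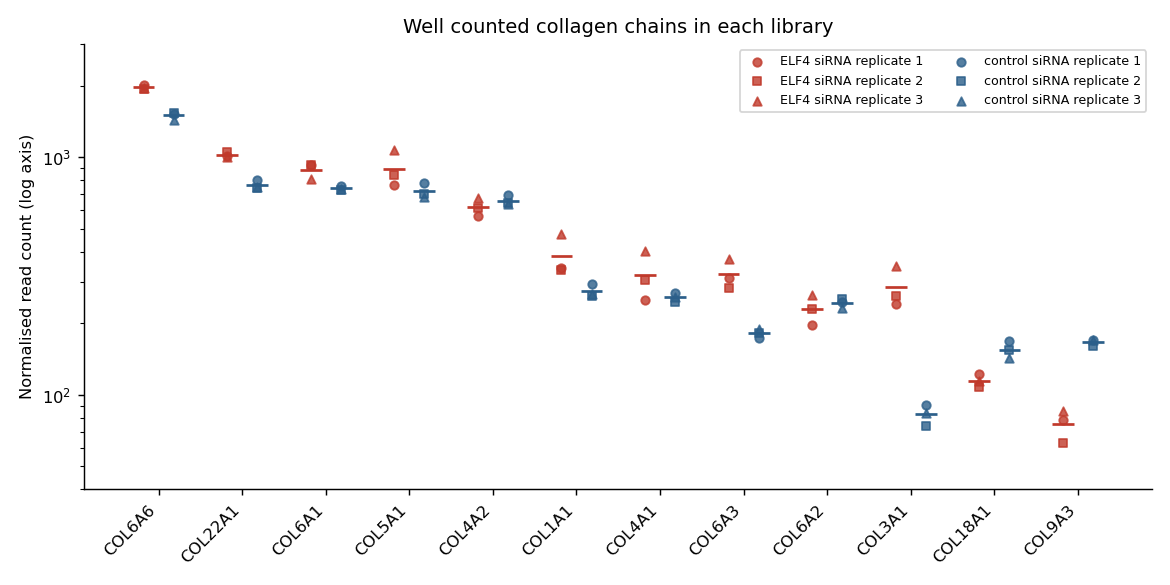
Normalised read count (log axis) of the 12 well counted collagen chains in each library, with a horizontal line at the group mean. ELF4 siRNA replicate 3 (triangles) sits above the other ELF4 siRNA libraries for COL5A1, COL1A1, COL4A1, COL6A3 and COL3A1, among others, and for COL3A1 every ELF4 siRNA library is above every control siRNA library.

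The fibrillar chains form the staggered fibrils of skin, bone, vessel wall and cartilage. Of the 8 with a row, 6 were tested, of which 3 rose, 0 fell and 3 were not called. COL3A1, whose chain forms type III collagen of vessels and reticular fibres, had the largest rise among the tested collagen chains. It had 241, 262 and 350 normalised counts in ELF4 siRNA libraries, against 90.5, 74.3 and 83.6 in control siRNA libraries. Each ELF4 siRNA library was above every control siRNA library by a wide margin. The fold was 3.43 (limma log2 fold change 1.75 ± 0.13 SE, adjusted p 1.28e-07), and without ELF4 siRNA replicate 3 the log2 fold change was 1.59 (adjusted p 1.26e-06).

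COL1A1, the main chain of type I collagen, rose less. Its normalised counts were 343, 336 and 476 with ELF4 siRNA and 293, 260 and 265 with control siRNA. The groups did not overlap, but the third ELF4 siRNA library stood well above the other two. The log2 fold change was 0.48 ± 0.11 SE (limma adjusted p 0.00314), and without ELF4 siRNA replicate 3 it was 0.31 (adjusted p 0.00737). The partner chain of type I collagen, COL1A2, was nearly silent, with 8 reads in all ELF4 siRNA libraries and 6 in all control siRNA libraries, against 1070 and 913 reads for COL1A1. The 95% Poisson intervals of those COL1A2 totals were 3.45 to 15.8 and 2.20 to 13.1 reads and cover counting error only. COL1A2, like COL9A1, COL4A3 and COL4A4 below, was chosen for mention after its values were seen.

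COL5A1 and COL5A2 encode the main chains of type V collagen, which starts and thins type I fibrils. COL5A1 had 768, 844 and 1074 normalised counts with ELF4 siRNA and 783, 700 and 681 with control siRNA. The groups overlapped, since the lowest ELF4 siRNA library lay below the highest control siRNA library, and a rise was called (log2 fold change 0.30 ± 0.10 SE, limma adjusted p 0.0223). With ELF4 siRNA replicate 3 left out the log2 fold change was 0.16 and no longer called (adjusted p 0.0980), and the same held for control siRNA replicate 2 (0.28, adjusted p 0.0519) and control siRNA replicate 3 (0.26, adjusted p 0.0622). The rise was also not called by limma without the trend (adjusted p 0.134). COL5A2 averaged 61.5 ± 5.75 with ELF4 siRNA and 55.5 ± 4.39 with control siRNA (SD, n = 3 each) and was not called, with a 95% interval of −0.14 to 0.43 on the log2 scale.

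COL3A1 and COL5A2 are neighbours on chromosome 2, on opposite strands and 19.1 kb apart in GENCODE 29. The ratio of their levels per transcript length was 5.60, 5.04 and 7.08 in ELF4 siRNA libraries, against 2.19, 1.57 and 2.01 in control siRNA libraries. The lowest ELF4 siRNA ratio was above the highest control siRNA ratio, so the gap between the neighbours was wider with ELF4 siRNA (exact permutation p 0.1, two-sided, the smallest that 3 against 3 allows). COL11A2, a chain of the cartilage collagen type XI, averaged 33.7 ± 5.21 with ELF4 siRNA and 29.4 ± 5.09 with control siRNA (SD, n = 3 each), with an interval of −0.21 to 0.59. COL27A1, a fibrillar chain of developing cartilage, averaged 18.2 ± 6.93 with ELF4 siRNA and 22.9 ± 5.13 with control siRNA, with an interval of −0.93 to 0.23. Neither was called. The interval of COL11A2 leaves room for a rise of the size seen in COL1A1, and that of COL27A1 only for a fall of that size.

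Collagen type VI chains assemble into beaded microfibrils around cells and are best known from muscle and from peripheral nerve. All 6 beaded filament chains of the table were tested, of which 4 rose, 0 fell and 2 were not called. COL6A6 and COL6A5 encode chains that resemble the one of COL6A3, and COL6A6 was the member with the most reads. It had 2013, 1945 and 1961 with ELF4 siRNA and 1522, 1543 and 1438 with control siRNA. Both groups were tight and far apart. COL6A6 rose by 0.39 ± 0.05 SE on the log2 scale (limma adjusted p 8.84e-06). COL6A5, its neighbour on chromosome 3, had far fewer reads, with 78.2, 53.9 and 74.5 normalised counts with ELF4 siRNA and 36.7, 43.4 and 33.3 with control siRNA. It rose by 0.84 ± 0.17 SE on the log2 scale (limma adjusted p 0.000954), with no overlap between the groups. How reads that match several genes were counted is not given in the sources used here, so the split of reads between such related chains is uncertain.

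COL6A3 encodes the large chain that joins those of COL6A1 and COL6A2 in the classical type VI molecule. It had 310, 282 and 374 normalised counts with ELF4 siRNA and 174, 183 and 190 with control siRNA. Every ELF4 siRNA library was well above every control siRNA library. The log2 fold change was 0.81 ± 0.10 SE (limma adjusted p 1.28e-05), and without ELF4 siRNA replicate 3 it was 0.69 (adjusted p 6.87e-05). COL6A1 had 929, 926 and 811 with ELF4 siRNA and 755, 732 and 735 with control siRNA and rose by 0.26 ± 0.06 SE (adjusted p 0.00289). For COL6A1 the third ELF4 siRNA library was the lowest of its group, the reverse of COL6A3.

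COL6A2, which follows COL6A1 on chromosome 21 at a distance of 93.0 kb, had 196, 230 and 264 normalised counts with ELF4 siRNA and 247, 254 and 232 with control siRNA. The groups overlapped and it was not called (log2 fold change −0.09, 95% interval −0.31 to 0.12, limma adjusted p 0.473), and without ELF4 siRNA replicate 1 its log2 fold change was 0.02. The 95% intervals of its partners were 0.60 to 1.02 for COL6A3 and 0.13 to 0.39 for COL6A1, both above that of COL6A2, and the ratios between partners are given below. COL28A1, a related chain found around Schwann cells in mouse nerve, averaged 33.7 ± 3.05 with ELF4 siRNA and 26.8 ± 3.45 with control siRNA (SD, n = 3 each). Its groups did not overlap, but it was not called (interval −0.05 to 0.70, adjusted p 0.149).

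FACIT collagens have interrupted helices and attach to fibrils or basement membranes. Of the 9 with a row, 7 were tested, of which 4 rose, 2 fell and 1 was not called, so both directions occurred within the class. COL22A1, a chain of tissue junctions such as that between muscle and tendon, had 1015, 1051 and 1006 normalised counts with ELF4 siRNA and 802, 744 and 752 with control siRNA. The ELF4 siRNA libraries lay close together and above all control siRNA libraries (log2 fold change 0.42 ± 0.05 SE, limma adjusted p 1.76e-05). COL16A1, which lies beside fibrils and microfibrils in skin and cartilage, had 55.1, 71.8 and 54.9 with ELF4 siRNA and 23.6, 19.4 and 21.3 with control siRNA. Its lowest ELF4 siRNA library was above the highest control siRNA library by more than the whole spread of either group, and the fold was 2.83 (log2 fold change 1.45 ± 0.17 SE, adjusted p 9.10e-06).

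The remaining FACIT chains that rose had few reads. COL21A1, known from vessel walls, averaged 37.9 ± 1.79 with ELF4 siRNA and 27.1 ± 3.04 with control siRNA (SD, n = 3 each; log2 fold change 0.48, limma adjusted p 0.0293). Leaving out ELF4 siRNA replicate 1 (adjusted p 0.0698), ELF4 siRNA replicate 3 (0.0717) or control siRNA replicate 1 (0.123) ended that call. COL14A1, a fibril surface chain of tendon and skin, had 11, 13.5 and 18.6 with ELF4 siRNA and 9.42, 3.43 and 4.96 with control siRNA. It passed the filter on low values only through its ELF4 siRNA libraries, so its rise (log2 fold change 1.21 ± 0.35 SE, adjusted p 0.0117) is no support for the count of risers. COL19A1, which in mouse is made by some neurons, averaged 80.3 ± 4.84 with ELF4 siRNA and 89.4 ± 7.57 with control siRNA and was not called (interval −0.40 to 0.09).

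Type IX collagen coats the fibrils of cartilage and is built from the chains of COL9A1, COL9A2 and COL9A3. COL9A3 had 78.2, 62.9 and 85.9 normalised counts with ELF4 siRNA and 171, 160 and 171 with control siRNA. Its values in ELF4 siRNA libraries were all far below those in control siRNA libraries, at a fold of 0.452 (log2 fold change −1.15 ± 0.12 SE, limma adjusted p 3.05e-06). COL9A2 had 74.9, 57.2 and 59.0 with ELF4 siRNA and 82.9, 101 and 99.2 with control siRNA and fell by 0.56 on the log2 scale (adjusted p 0.00359). COL9A1 had 8 reads in all ELF4 siRNA libraries and 18 in all control siRNA libraries and was not tested. In GENCODE 29 exons of COL9A3 overlap TCFL5 on the opposite strand, and TCFL5 averaged 358 ± 15.4 with ELF4 siRNA and 382 ± 11.1 with control siRNA (SD, n = 3 each), with overlapping groups. Since the strand setting of the counting is not given, reads of the overlapping stretch cannot be told apart.

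**Figure D3:**
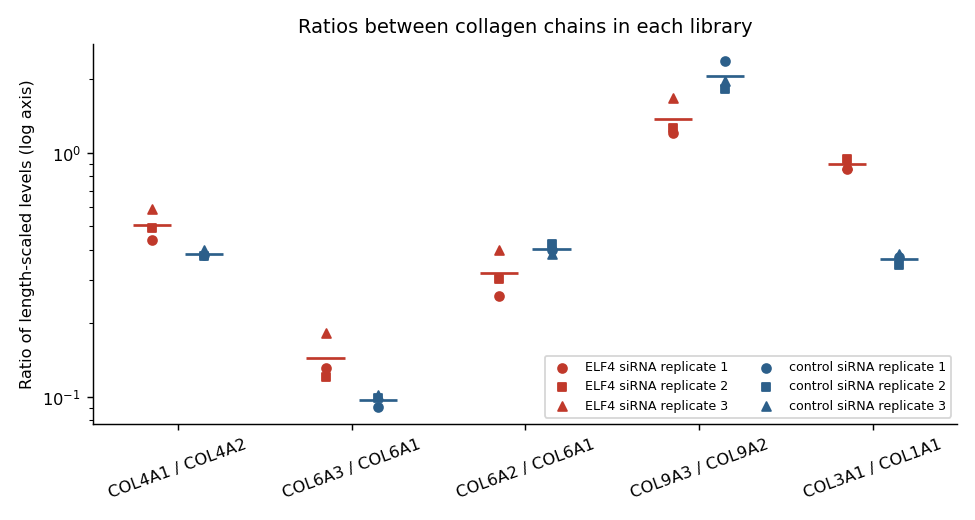
Ratio of the levels per transcript length (log axis) of 5 pairs of collagen chains in each library, with a line at the group mean. The ratios of COL4A1 to COL4A2, COL6A3 to COL6A1 and COL3A1 to COL1A1 are higher in every ELF4 siRNA library than in every control siRNA library, that of COL9A3 to COL9A2 is lower, and that of COL6A2 to COL6A1 overlaps.

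COL4A1 and COL4A2 encode the chains of the most widespread basement membrane network. COL4A1 had 252, 306 and 405 normalised counts with ELF4 siRNA and 268, 247 and 258 with control siRNA. COL4A2 had 565, 611 and 675 with ELF4 siRNA and 692, 643 and 635 with control siRNA. Neither was called: for COL4A1 the log2 fold change was 0.29 (95% interval 0.02 to 0.56, limma adjusted p 0.0766), and for COL4A2 −0.09 (interval −0.24 to 0.05, adjusted p 0.297). In the ELF4 siRNA group both chains were lowest in replicate 1 and highest in replicate 3. For COL4A1 the log2 fold change was 0.11 without ELF4 siRNA replicate 3 (adjusted p 0.372) and 0.45 without ELF4 siRNA replicate 1 (adjusted p 0.00565), so the call turned on single libraries. It also turned on the method with all libraries kept, since a rise was called by edgeR (adjusted p 0.0464) and by DESeq2 (adjusted p 0.0386) on the recovered reads and with upper quartile scaling (adjusted p 0.0276). Exons of COL4A2 overlap its antisense genes in GENCODE 29.

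Although neither was called, their ratio did not overlap between the groups. The ratio of COL4A1 to COL4A2 per transcript length was 0.438, 0.493 and 0.589 with ELF4 siRNA, against 0.380, 0.377 and 0.398 with control siRNA. Each ELF4 siRNA library had relatively more COL4A1 than any control siRNA library (exact permutation p 0.1, two-sided, the smallest possible here). The tissue-restricted type IV chains COL4A3 and COL4A4, known from kidney, had 3 and 2 reads in all ELF4 siRNA libraries and 10 and 14 in all control siRNA libraries. When no filter on low values was used, COL4A4 was the only one of the 9 untested members to be called, downward.

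Of the 9 ratios between partner or neighbouring chains that were computed, 5 did not overlap between the groups, each with an exact permutation p of 0.1. No share was computed for ratios of other genes, and 53.6% of single tested rows did not overlap. All of the 5 but COL4A1 to COL4A2 contain COL3A1, COL6A3 or COL9A3. Those chains did not overlap by themselves, so their ratios are not separate results. The ratio of COL6A3 to COL6A1 was 0.131, 0.120 and 0.182 with ELF4 siRNA and 0.0911, 0.0984 and 0.102 with control siRNA. The ratio of COL3A1 to COL1A1 was 0.855, 0.946 and 0.892 with ELF4 siRNA and 0.375, 0.346 and 0.383 with control siRNA, so per length COL3A1 was close to COL1A1 with ELF4 siRNA and well below it with control siRNA. The ratio of COL9A3 to COL9A2 was 1.20, 1.26 and 1.67 with ELF4 siRNA and 2.37, 1.82 and 1.97 with control siRNA. The ratio of COL6A2 to COL6A1 was 0.259, 0.304 and 0.398 with ELF4 siRNA and 0.401, 0.424 and 0.386 with control siRNA, and here the groups overlapped (exact permutation p 0.2). The ratios of COL5A1 to COL5A2, COL6A6 to COL6A1 and COL6A5 to COL6A6 overlapped as well.

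The remaining classes had 1 tested chain each. COL18A1, a multiplexin of basement membranes whose end fragment is endostatin, had 122, 108 and 114 normalised counts with ELF4 siRNA and 168, 154 and 143 with control siRNA. All its ELF4 siRNA libraries were below all control siRNA libraries, and it fell by 0.43 on the log2 scale (limma adjusted p 0.00251). COL13A1, a transmembrane chain of the neuromuscular junction, averaged 13.9 ± 6.85 with ELF4 siRNA and 23.7 ± 1.89 with control siRNA (SD, n = 3 each; log2 fold change −0.82, adjusted p 0.0284), with overlapping groups. Leaving out ELF4 siRNA replicate 1 (adjusted p 0.0913) or 2 (0.119), or control siRNA replicate 1 (0.0821) or 3 (0.0633), ended the call, as did limma without the trend (0.0809).

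COL8A1, a short chain of vessel walls and of the corneal endothelium, had 54.0, 57.2 and 66.2 with ELF4 siRNA and 45.2, 42.3 and 48.2 with control siRNA. The groups did not overlap, and the rise (log2 fold change 0.38 ± 0.14 SE, limma adjusted p 0.0390) was lost when any library but ELF4 siRNA replicate 1 was left out (adjusted p 0.0558 to 0.131). COL7A1, the chain of the anchoring fibrils that tie the epidermis to the dermis, had 43.0, 32.6 and 31.0 with ELF4 siRNA and 19.8, 28.6 and 17.0 with control siRNA. It rose by 0.70 ± 0.22 SE on the log2 scale (adjusted p 0.0169). The call did not hold once ELF4 siRNA replicate 1 (adjusted p 0.0830), control siRNA replicate 1 (0.0522) or control siRNA replicate 3 (0.0739) was left out. The 5 highest of the untested members were COL26A1, COL23A1, COL8A2, COL24A1 and COL9A1, with means over all libraries of 5.91, 5.10, 4.92, 4.45 and 4.31.

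Levels of different chains were compared per 1000 bases of transcript, with lengths from GENCODE 29. In ELF4 siRNA cells COL6A1 (210 ± 15.8 normalised counts per 1000 bases, SD, n = 3) and COL6A6 (206 ± 3.67) were the highest and did not differ beyond their spread. COL22A1 followed with 161 ± 3.73, then COL5A1 with 106 ± 18.8 and COL4A2 with 95 ± 8.49, whose ranges of 1 SD overlapped. In control siRNA cells the order at the top was COL6A1 (175 ± 2.87), COL6A6 (157 ± 5.80), COL22A1 (121 ± 4.94), COL4A2 (101 ± 4.69) and COL5A1 (85.2 ± 6.41). COL3A1 stood at 51.3 ± 10.4 in ELF4 siRNA cells, level with COL1A1 (57.2 ± 11.8) and COL4A1 (48.5 ± 11.7) within the spread, and at 14.9 ± 1.47 in control siRNA cells, level with COL19A1 (14.3 ± 1.21). COL9A3 stood at 30.3 ± 4.70 in ELF4 siRNA cells and at 67.0 ± 2.59 in control siRNA cells, where it was level with COL6A2 (70.5 ± 3.25).

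**Figure D4:**
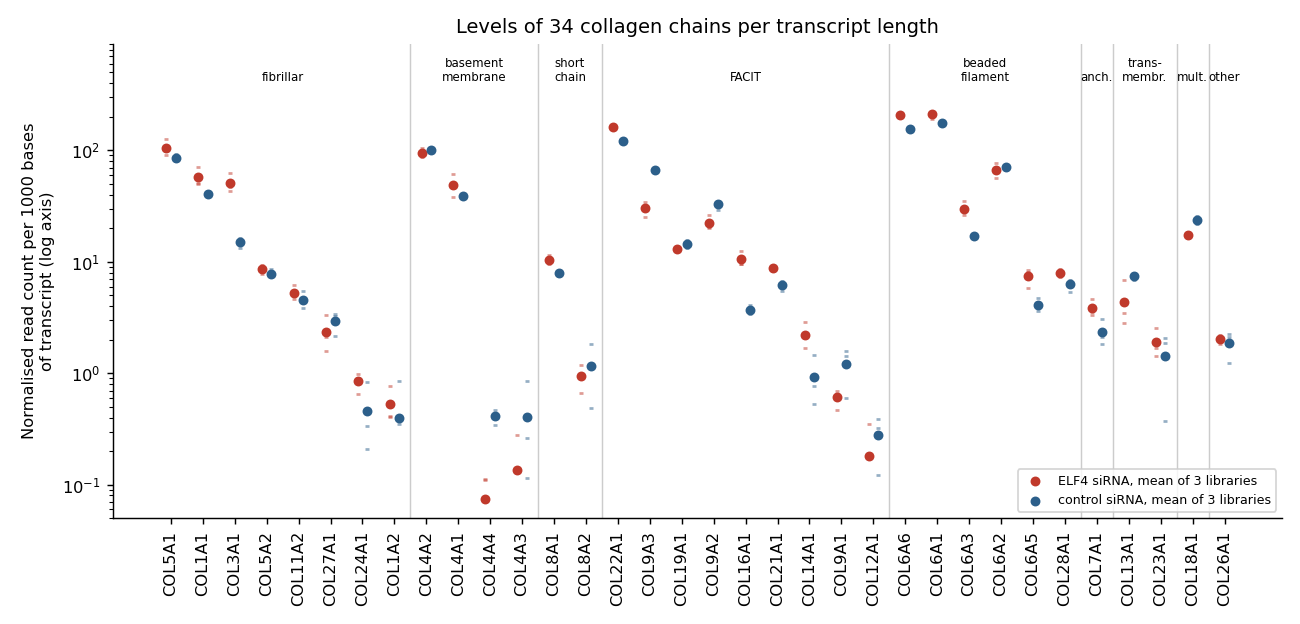
Normalised read count per 1000 bases of transcript (log axis) of the 34 collagen chains, grouped by class (anch., anchoring fibril; mult., multiplexin), with a dot for the mean of the 3 libraries of each group and a dash for each library above 0. Chains of type VI collagen and COL22A1 are at the top in both groups, while COL1A2 lies below 1 beside its partner COL1A1, and COL4A3 and COL4A4 lie below 1 as well.

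By class, the summed normalised count of the fibrillar chains was 1469, 1560 and 2030 in ELF4 siRNA libraries and 1287, 1157 and 1126 in control siRNA libraries, a ratio of the means of 1.42. That of the beaded filament chains was 3558, 3474 and 3516 in ELF4 siRNA libraries and 2763, 2778 and 2656 in control siRNA libraries, a ratio of 1.29. The ratio was 1.15 for the FACIT chains and 1.02 for the basement membrane chains. It was below 1 for the transmembrane chains (0.701) and for COL18A1, the multiplexin (0.739), and above 1 for the short chain (1.25) and anchoring fibril (1.63) classes. The fibrillar sum was highest in ELF4 siRNA replicate 3, while the beaded filament sum varied little within either group.

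The machinery that makes, binds and degrades collagen moved in both directions, and more of it fell than rose. Of 93 genes written in 5 lists, 85 had a row and 74 were tested, of which 20 rose (27%), 31 fell (41.9%) and 23 were not called, against the shares of 20.7% and 24.4% of all tested rows given above. The 20 include TGFBI, which passed the filter only through its ELF4 siRNA libraries and is no support for that count. Most of these genes had a mean of at least 100, and of all tested rows with such a mean 24.7% rose and 32.8% fell. When only rows with such a mean were tested, 13 of the pathway genes rose and 29 fell. With upper quartile scaling and the usual filter the split was nearly even, with 26 rising and 28 falling. Over all tested rows that scaling gave more rises than falls, with 5479 rising and 3938 falling. The median log2 fold change of these genes was −0.12, on the other side of 0 from that of the chains.

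Of the genes that modify and fold chains in the endoplasmic reticulum, 19 were tested, of which 3 rose, 10 fell and 6 were not called. CRTAP, the helper protein of the prolyl 3-hydroxylation complex, had 399, 470 and 419 normalised counts with ELF4 siRNA and 1117, 1077 and 1113 with control siRNA. All ELF4 siRNA libraries lay far below the control siRNA libraries (log2 fold change −1.36 ± 0.06 SE, limma adjusted p 2.85e-09). The other parts of that complex were LEPRE1, the hydroxylase, which rose by 0.13 (adjusted p 0.042), and PPIB, which was not called (interval −0.08 to 0.12). FKBP10, a prolyl isomerase needed for crosslinking, rose by 0.60 (adjusted p 2.95e-08). PLOD1, a lysyl hydroxylase, fell by 0.50 (adjusted p 2.15e-06), and SPARC, a collagen-binding glycoprotein, fell by 0.52 (adjusted p 1.25e-06).

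Of the genes for secretion, trimming and crosslinking, 18 were tested, of which 4 rose, 7 fell and 7 were not called. ADAMTS3 and ADAMTS2 cut the amino-terminal propeptide off fibrillar procollagens. ADAMTS3 had 879, 869 and 830 normalised counts with ELF4 siRNA and 2076, 1868 and 2072 with control siRNA (log2 fold change −1.22 ± 0.05 SE, limma adjusted p 1.67e-09). ADAMTS2 had 436, 429 and 422 with ELF4 siRNA and 884, 898 and 859 with control siRNA (−1.03 ± 0.05 SE, adjusted p 6.62e-09). Both stood far below their control siRNA values in every ELF4 siRNA library, while COL1A1 and COL3A1, whose products such enzymes trim, rose. The lysyl oxidase relatives LOXL3 and LOXL1 fell by 0.65 and 0.62 (adjusted p 3.88e-06 and 4.23e-05). The family was split, since LOXL2 rose by 0.35 (adjusted p 0.0412) and LOX was not called (interval −0.04 to 0.51).

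**Figure D5:**
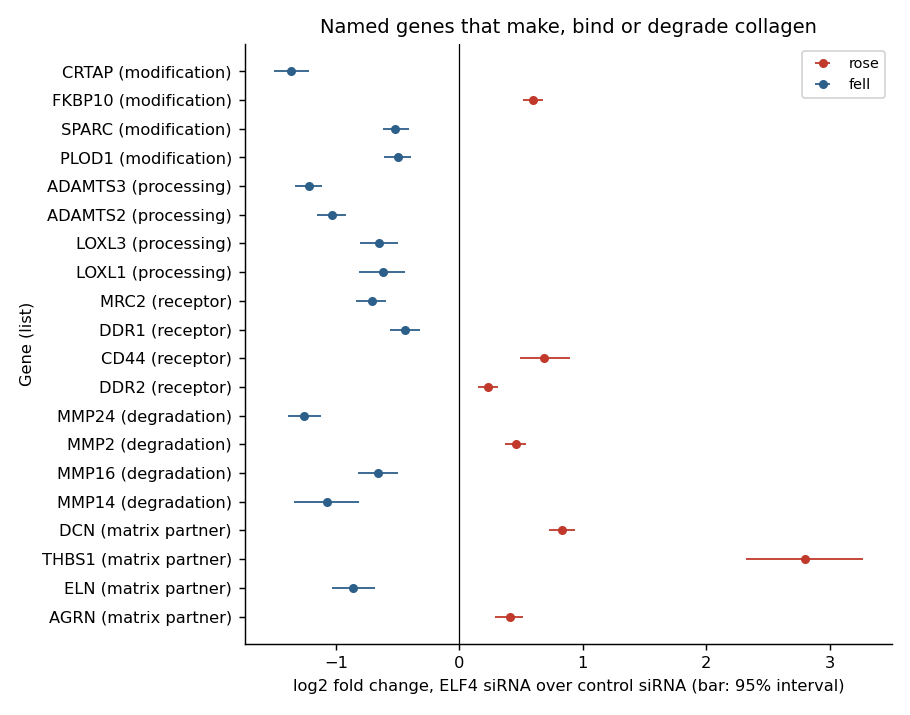
Log2 fold change, ELF4 siRNA over control siRNA, of the genes with the smallest adjusted p in each of 5 collagen pathway lists, with the 95% interval from limma as a bar and the list in brackets. THBS1 lies furthest to the right at 2.80, and CRTAP, MMP24 and ADAMTS3 furthest to the left at −1.36, −1.26 and −1.22.

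Of the receptors, 11 were tested, of which 3 rose, 2 fell and 6 were not called. MRC2, which takes up collagen fragments, fell by 0.71 (limma adjusted p 3.82e-07). Of the discoidin domain receptors, kinases that bind collagen, DDR1 fell by 0.44 (adjusted p 1.85e-05) and DDR2 rose by 0.23 (adjusted p 0.000241). CD44, a hyaluronan receptor that also binds collagen, rose by 0.69 (adjusted p 4.46e-05). Of the degrading enzymes and their inhibitors, 12 were tested, of which 3 rose, 7 fell and 2 were not called. The membrane-bound metalloproteinases MMP24, MMP14 and MMP16 fell by 1.26, 1.07 and 0.66 (adjusted p 3.46e-09, 8.64e-06 and 6.65e-06). MMP15, also membrane-bound, was not called (log2 fold change 0.10, interval −0.03 to 0.22, adjusted p 0.207). The secreted gelatinase MMP2 rose by 0.46 (adjusted p 5.52e-07).

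Of the proteins that share the matrix with collagens, 14 were tested, of which 7 rose, 5 fell and 2 were not called. The risers include TGFBI, with 18.7, 14.6 and 20.7 normalised counts with ELF4 siRNA and 7.54, 2.28 and 6.38 with control siRNA. TGFBI passed the filter on low values only through its ELF4 siRNA libraries, so its rise is no support for the count of risers. THBS1, a matricellular glycoprotein, had 79.3, 71.8 and 129 normalised counts with ELF4 siRNA and 13.2, 13.7 and 9.92 with control siRNA. Its lowest ELF4 siRNA library was several times its highest control siRNA library (log2 fold change 2.80 ± 0.22 SE, limma adjusted p 2.44e-07). The third ELF4 siRNA library was again the highest. DCN, a small proteoglycan that coats collagen fibrils, rose by 0.83 (adjusted p 1.85e-08), AGRN, a proteoglycan of basement membranes and synapses, rose by 0.41 (adjusted p 2.83e-05), and ELN, the core of elastic fibres, fell by 0.86 (adjusted p 1.58e-06).

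Many collagen chains are also made by other cell types, so the markers of those types are given beside the counts. Of 10 fibroblast markers other than collagens 7 had a row, with a summed level of 10170 to 10402 in ELF4 siRNA libraries and 12045 to 12330 in control siRNA libraries. Of these DCN and LUM rose, PDGFRB, THY1 and FBLN1 fell, PDGFRA and TWIST1 were not called, and none was at 0. DCN and LUM are also counted among the matrix partners above. The highest were THY1, TWIST1 and PDGFRB, which averaged 4443, 1698 and 875 with ELF4 siRNA and 5376, 1818 and 1989 with control siRNA. Of 7 Schwann cell markers 6 had a row, with a summed level of 1219 to 1281 in ELF4 siRNA libraries and 617 to 648 in control siRNA libraries. This sum was mostly PMP22, which averaged 1041 ± 19.9 with ELF4 siRNA and 436 ± 31.7 with control siRNA (SD, n = 3 each), while SOX10, the lineage factor, averaged 4.95 with ELF4 siRNA and 2.01 with control siRNA.

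Of 5 cartilage markers, SOX9 averaged 250 ± 28.8 with ELF4 siRNA and 332 ± 37.0 with control siRNA and fell (log2 fold change −0.41, limma adjusted p 0.00403). ACAN, MATN3, COMP and HAPLN1 were not tested for want of reads. The summed level of the cartilage markers was 240 to 295 in ELF4 siRNA libraries and 305 to 380 in control siRNA libraries. The summed level of endothelial markers was 9.31 to 15.7 in ELF4 siRNA libraries and 9.92 to 14.1 in control siRNA libraries, with VWF and CDH5 as the markers in the table and neither tested. That of blood markers was 31.9 to 48.3 in ELF4 siRNA libraries and 46.8 to 53.7 in control siRNA libraries, where PTPRC rose and CD14 fell. The part of these other cell types in the collagen values was not tested.

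The 7-letter words ACCTGTC and CCTGTCA were looked up because an earlier look at these same libraries had singled them out. At least 1 of them was in the GENCODE 29 3′ UTR of 4 of the 25 tested collagen chains (16%), against 17.4% of 12411 tested genes with a matched 3′ UTR. The chains were COL5A1, COL6A5, COL6A6 and COL11A2, of which the first 3 rose, and 0 of the 4 chains that fell held either word. Among the pathway genes, 9 of the 31 that fell and 4 of the 18 risen genes with a matched 3′ UTR held one of them, with CRTAP, PLOD1, ADAMTS2, MMP24, MMP16 and ELN among the fallen and CD44 and DDR2 among the risen. Since the words were chosen on these libraries, the counts only describe where they occur.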

How the data were processed

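PolyA RNA of BE-(2)-C cells was measured in 6 libraries. The values deposited by the authors are a signal, namely reads per gene divided by a size factor per library. TopHat, featureCounts, DESeq2 and hg19 are named per the submitters' processing notes. Versions, roles, annotation, strand setting and filters: not given in the sources used here. After multiplication by the size factors 100% of values were whole within 0.001, so reads were recovered. All columns were matched to a sample.

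The tested rows reached 10 in 3 or more libraries. They were compared by limma's trended moderation, two-sided, on values plus 1 taken to log2, without covariates. Benjamini-Hochberg adjustment covered all tested rows, at a threshold of 0.05. This scale understates changes of low genes. Libraries of a group differed by more than sampling noise (chi-square per degree of freedom 2.05 to 5.78), so all were used. Single ratios had exact permutation tests.

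Named were ELF4, all tested chains, the 5 highest untested ones, 3 more untested ones chosen after their values were seen, and the up to 4 genes of each pathway list with the smallest adjusted p and their complex partners. TGFBI was named for how it passed the filter, LOXL2 and LOX as relatives of LOXL3 and LOXL1, and MMP15 as a relative of MMP24, MMP14 and MMP16. From each marker list the 3 highest were named, with others where a list was described in full. Members and lists were chosen with earlier results of these data known. Gene lengths, neighbours and 3′ UTRs came from GENCODE 29, matched by symbol (34 of 34 members), and promoters from RefSeq (GRCh38.p14), neither on the authors' build.

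Alternatives were pseudocounts of 0.5 and 5, looser and stricter filters, TMM, upper quartile and total scaling, limma with no trend, edgeR and DESeq2 on whole reads, a replicate block, and leaving out each library. The limma step was also tested on simulated data. Tests ran in R 4.3.3 (DESeq2 1.42.0, edgeR 4.0.16, limma 3.58.1), and tables and plots in Python 3.11.15 (matplotlib 3.10.9, numpy 2.4.6, pandas 2.3.3, scipy 1.17.1).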

Additional observations from a re-analysis of the deposited data

How the results depend on the processing

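No called gene changed sign under any alternative run for it. Among the uncalled, COL6A2 did without ELF4 siRNA replicate 1 (0.02). With only rows of a mean of at least 100 tested, 7 collagen chains rose and 2 fell, and 13 collagen pathway genes rose, because fewer rows were tested. Under the other settings 9 to 14 chains rose and 3 to 5 fell, with 9 to 12 rising and 3 to 4 falling when 1 library was left out. Of the 17 called chains, 11 kept their call under every alternative in which they were tested (COL16A1, COL6A5 and COL9A2 fall under the mean of 100), and COL5A1, COL7A1, COL8A1, COL13A1, COL14A1 and COL21A1 lost it under at least 1, all but COL14A1, to which DESeq2 gave no adjusted p, also in DESeq2 (adjusted p 0.0642 to 0.195), and COL5A1 and COL13A1 in limma without the trend. COL4A1 became called with upper quartile scaling (adjusted p 0.0276), edgeR (0.0464), DESeq2 (0.0386), the replicate block (0.0229) and without ELF4 siRNA replicate 1. Upper quartile scaling moved the median of all rows to 0.060, with 5479 rows rising and 3938 falling (58.2% of calls rose, against 46%), 14 chains rising and 4 falling, and 26 pathway genes rising and 28 falling. Deviations of same-numbered libraries correlated at 0.043, 0.264 and 0.131, and those of differently numbered ones at −0.277 to 0.153. These values do not settle whether the numbers pair the samples. With the replicate block, 14 chains rose and 4 fell, and over all tested rows 4564 rose and 5346 fell, against 4217 and 4956 without it. Of the ELF4 siRNA libraries, 2 correlated best with their own number. The planned addition of rows that join several names gave no value, since 0 of the 2148 joined rows name a collagen chain. Chains with few reads have wide intervals, so small changes in them were not detectable at this depth.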
